A study of Mus musculus with 4 samples.

Results

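The nuclear-encoded subunits of the respiratory chain and ATP synthase are described here in neutrophils of mouse bone marrow exposed to amyloid-beta 40 (Aβ40), a fragment of the amyloid precursor protein. Members were taken by symbol and not by any measured value, though the set was chosen with earlier results of these data known. They are protein-coding genes off the mitochondrial genome whose symbols begin with Ndufa, Ndufb, Ndufc, Ndufs, Ndufv, Uqcr or Atp5, or with Cox4 to Cox8, together with Sdha, Sdhb, Sdhc, Sdhd, Cyc1 and Cycs. Symbols beginning Ndufaf, which name assembly factors, were left out. The rule found 88 of the 54532 genes in the count table. Grouped by symbol, 38 were counted in complex I, 4 in complex II and 9 in complex III. A further 18 were counted in complex IV and 18 in complex V, and 1 encodes cytochrome c. The 38 include Ndufa4, which is named for complex I and has since been assigned to complex IV. The 88 genes lie on 19 chromosomes and carry 87 distinct symbols, since Atp5o appears under 2 identifiers. RNA was sequenced from wild-type (WT) cells in 4 libraries. The control cells received DMSO, a solvent, in the libraries DMSO 1 and DMSO 2, with no dose or time in the labels. The treated cells received Aβ40 for 4 h at 20 µg/ml, in the libraries Aβ40 1 and Aβ40 2. According to the series' description, the experiment asked how Aβ40 makes these cells release extracellular traps. Neither the age, sex or strain of the mice nor any pooling of animals is given in the sources used here. Nor is it given whether a group's libraries are separate cultures or animals, so every p-value below measures the spread between these samples alone, which may be technical.

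The respiratory chain sits in the inner membrane of mitochondria. Complex I takes electrons from NADH and complex II from succinate, ubiquinone carries them to complex III, cytochrome c carries them on to complex IV, and complex IV hands them to oxygen. Complexes I, III and IV pump protons, and complex V, the ATP synthase, lets protons flow back while it makes ATP. All but complex II also hold subunits encoded by mitochondrial DNA. Mature neutrophils are known for few mitochondria and for drawing most of their ATP from glycolysis, while their precursors in the marrow hold more.

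Total counts lay between 17212264 and 19524125 per library. All 15 neutrophil markers chosen to check the label passed the filter on low counts. Together they held between 104717 and 150172 CPM, a count scaled to library size by TMM, lowest in DMSO 2. Singly 11 of 15 were lower in DMSO 2 than in DMSO 1 (49.9% of all tested genes), and 8 were lowest in DMSO 2 (28.9%). Mmp8, Mmp9, Csf3r and Cxcr2 were higher in DMSO 2 than in DMSO 1. Of the 15 markers 5 were lower and 2 higher in both Aβ40 libraries. Below, 4 values in a row stand in the order DMSO 1, DMSO 2, Aβ40 1 and Aβ40 2. Markers of B cells were present too, with a summed 584 and 669 CPM in the DMSO libraries and 1312 and 1323 CPM in the Aβ40 libraries, and 14 of 14 were higher in both Aβ40 libraries. The 10 eosinophil markers together were at 1687, 1405, 3684 and 3742 CPM, again higher in both Aβ40 libraries for 10 of 10. Of 15 T and NK cell markers 14 were tested, at a summed 119, 115, 187 and 197 CPM, and 11 of these 14 were higher in both Aβ40 libraries. Of all 13479 tested genes 23.2% were higher in both Aβ40 libraries and 21.9% lower in both. At a Benjamini-Hochberg adjusted p under 0.05 edgeR called 17 genes in all. Of these 6 were B cell markers, 1 an eosinophil marker and 1 a T and NK cell marker. Median log2 fold changes were 1.20 for eosinophils, 1.30 for T and NK cells and 1.63 for B cells. The other marker lists had 0 members called and medians nearer 0. These were 0.36 for monocytes and macrophages, 0.06 for cycling cells, 0.13 for progenitors, -0.04 for erythroid cells and 0.07 for neutrophils. The monocyte and macrophage markers summed to 2950, 2862, 3835 and 3348 CPM. The cycling cell markers summed to 2429, 1982, 2531 and 2446 CPM, lowest in DMSO 2. Singly 6 of the 12 cycling cell markers were lower in DMSO 2 than in DMSO 1. Among 12 monocyte and macrophage markers 7 were higher in both Aβ40 libraries and 2 lower. C1qb was at 1.62 and Mrc1 at 1.56, while Csf1r was at -0.25 and Cx3cr1 at -0.28. Whether these cells had a part in any value below was not tested, and in bulk RNA fewer cells of a type and less RNA per cell cannot be told apart.

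One control library, DMSO 2, stood apart for the respiratory chain. The members together held 8721 and 5842 CPM in DMSO 1 and 2 and 7846 and 8280 CPM in Aβ40 1 and 2. Of the 83 members that passed the filter, 75 were lower in DMSO 2 than in DMSO 1, and all 37 of complex I were among them. Among all 13479 tested genes 49.9% were lower in DMSO 2. The median log2 ratio of DMSO 2 to DMSO 1 was -0.68 over the members and near 0 over all genes. DMSO 2 gave the lowest of the 4 values for 67 members (80.7%, against 28.9% of all tested genes), Aβ40 1 for 10, DMSO 1 for 6 and Aβ40 2 for 0. DMSO 1 gave the highest value for 40 members and Aβ40 1 for 22. The 8 exceptions, which were higher in DMSO 2 than in DMSO 1, were Sdhc, Uqcrc1, Cyc1, Uqcrc2, Atp5a1, Atp5b, Cox8a and Cox6a2. The summed level of erythroid markers was also lowest in DMSO 2, with 9 of 10 symbols found and 8 tested, at a summed 5054 and 2130 CPM in DMSO 1 and 2 and 3507 and 3659 CPM in Aβ40 1 and 2. Singly 5 of the 8 were lower in DMSO 2 than in DMSO 1, while Slc4a1, Alas2 and Klf1 were higher. Their part in the gap was not tested, and neither was that of the neutrophil markers above.

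**Figure D1:**
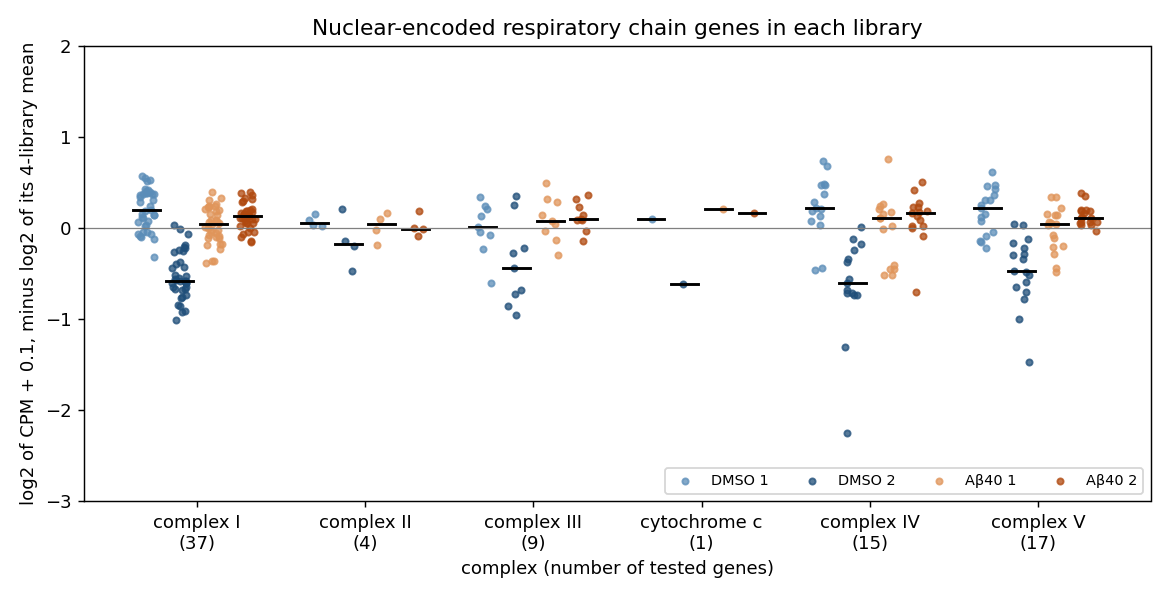
Each point is 1 tested member in 1 library, as the log2 of its CPM plus 0.1 minus the log2 of the mean over the 4 libraries (y axis), by complex (x axis, number of tested genes in brackets), with black bars at the medians. In every complex the DMSO 2 points have the lowest median, while those of DMSO 1 overlap with both Aβ40 libraries.

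In the RNA of these libraries, which also held markers of other cells, the subunits of 1 complex were far from equal in FPKM. Levels between genes are compared on the deposited FPKM, a value per gene length and library depth. That gene length can far exceed the length of the transcript with the longest coding sequence. For Ndufb2 it is 5628 against 455 bases, and for Ndufb7 4522 against 623. The order of genes below, with the highest and lowest of each complex, therefore depends on the length used. Over the tested members the mean FPKM of the 4 libraries ran from 0.474 for Cox4i2 to 262 for Cox7a2l, a protein that joins complexes III and IV, with a median of 39.2. Within complex I the range was from 0.952 for Ndufb2 to 167 for Ndufb11, both small subunits of the membrane arm. Complex II ran from 14.4 for Sdhc to 106 for Sdhd, its membrane anchors. Complex III ran from 15.9 for Cyc1, the cytochrome c1 that passes electrons to cytochrome c, to 186 for Uqcrh, the hinge protein beside it. In complex V the lowest was Atp5s, a coupling factor, at 3.09 and the highest Atp5h, a stalk subunit, at 163. The catalytic chains Atp5a1 and Atp5b lay between them, at 104 and 88.6 FPKM. Cytochrome c, from Cycs, was at 27.0 FPKM. Ndufb2 shares 447 exonic bases with Gm16272, Gm42420 and Braf in the GENCODE M21 annotation, so its level is uncertain.

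**Figure D2:**
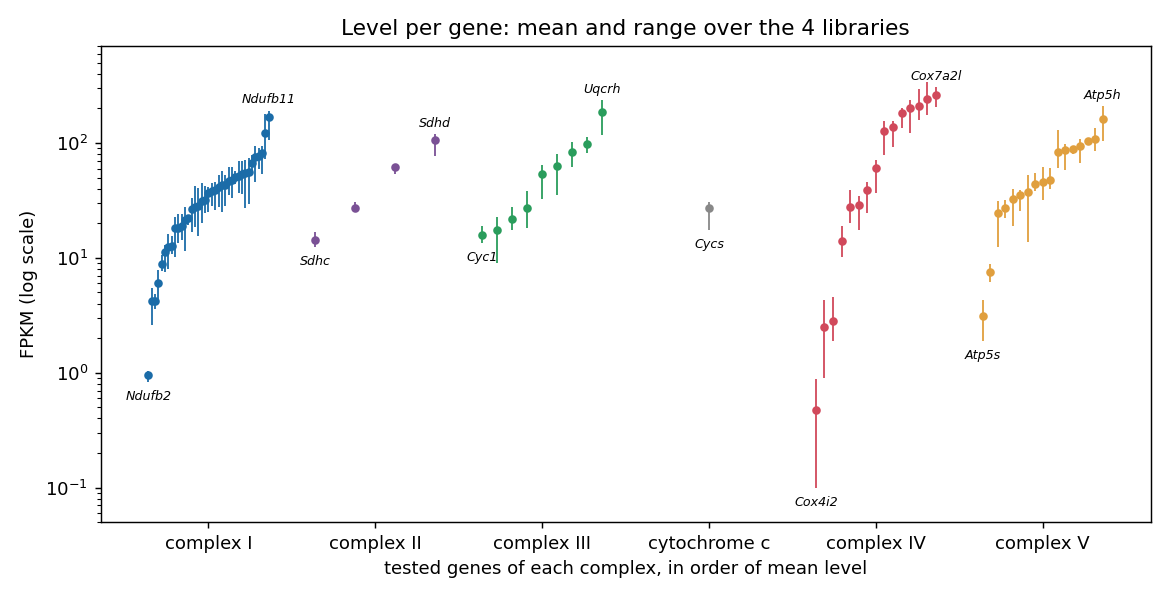
Mean FPKM of each tested member (points, log scale on the y axis) with the range over the 4 libraries (lines), ordered by mean within each complex along the x axis. The lowest and the highest gene of each complex are named, from Cox4i2 at 0.474 to Cox7a2l at 262, and the line of Cox4i2 is drawn down to 0.1 because it was listed at 0 in DMSO 2.

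Median FPKM over the members of a complex showed the same low library. Complex I had medians of 42.6 and 25.3 in DMSO 1 and 2 and 35.5 and 39.2 in Aβ40 1 and 2. Complex IV had medians of 64.1, 36.5, 71.9 and 68.9 in that order. Complex V was the exception, at 55.1, 39.6, 39.1 and 49.2, with Aβ40 1 as low as DMSO 2.

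For 4 subunits that exist in several versions 1 form held nearly all of the FPKM, and the c subunit was divided. The Cox7a family was divided only with Cox7a2l counted in it. Cox4i1 made up between 99.7% and 100% of the Cox4 FPKM, and Cox6b1, the somatic partner of the testis form Cox6b2, between 98.0% and 99.1% of the Cox6b FPKM. Cox8a held 100%, as Cox8b and Cox8c, known from muscle and testis, were listed at 0. Ndufa4, named for complex I and since assigned to complex IV, held 100% against its relative Ndufa4l2. In the Cox7a family Cox7a2l, the protein that joins complexes III and IV, held between 62.1% and 69.1%. Cox7a2 held between 30.6% and 36.9%, and the muscle form Cox7a1 at most 1.03%. The mean FPKM over the libraries was 138 for Cox7a2 and 2.49 for Cox7a1. The genes Atp5g1, Atp5g2 and Atp5g3 encode the same mature c subunit of the proton-carrying ring. Atp5g2 held 39.4% and 46.7% of their FPKM with DMSO and 57.7% and 48.2% with Aβ40, and Atp5g3 held 52.1% and 45.0% against 36.4% and 44.0%. The groups did not overlap for either gene, though DMSO 2 and Aβ40 2 lay close, and no test was made on these shares. Shares within a family also depend on the gene lengths behind the FPKM. These lengths are 4912, 1675 and 2181 bases for Atp5g1, Atp5g2 and Atp5g3. Their transcripts with the longest coding sequence have 4715, 441 and 714 bases, so another length would give other shares.

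Promoters of the members were searched for letters of factors known to drive respiratory chain genes, and 37 of 66 held at least 1 set. Windows from 250 bases before to 50 after a start (RefSeq, GRCm38.p6) were found by symbol, chromosome and strand for 66 of 83 tested members and for 9216 tested protein-coding genes in all. They were searched on both strands for 3 sets of letters: GCGCNNGCGC for nuclear respiratory factor 1 (NRF-1), CCGGAAG for GABP (NRF-2) and AAGATGG for YY1. The GABP letters end with the AAG that opens the YY1 letters, so 1 stretch can hold both. The NRF-1 letters were in 18 of the 66 member windows (27.3%) and in 14.01% of all windows. The GABP letters were in 15 (22.7%, against 19.4%) and the YY1 letters in 9 (13.6%, against 7.54%). At least 1 of the 3 was in 56.1% of member windows and 35.6% of all windows, a difference that was not tested. The median GC content of the windows was 57.3% for the members and 60.7% for all. The stretches below are shown because they carry the NRF-1 letters upstream of genes from 3 complexes whose log2 fold changes, described further on, run from -0.47 to 0.63. The capitals mark the NRF-1 letters, and each is written 5′ to 3′ on the minus strand, the strand of its gene.
Ndufb4, chr16:37654525-37654584: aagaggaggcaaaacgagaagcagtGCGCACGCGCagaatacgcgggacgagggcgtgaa
Ndufv2, chr17:66101560-66101601: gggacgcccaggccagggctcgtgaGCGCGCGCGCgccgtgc
Ndufab1, chr7:122101894-122101953: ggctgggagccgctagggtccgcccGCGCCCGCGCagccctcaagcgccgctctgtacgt
Atp5h, chr11:115420026-115420085: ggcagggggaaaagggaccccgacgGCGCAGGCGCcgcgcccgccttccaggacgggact
Cox6a1, chr5:115349086-115349145: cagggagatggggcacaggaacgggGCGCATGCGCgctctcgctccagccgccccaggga
The 18 members with these letters had a median log2 fold change of 0.15 and the matched members without them 0.27. A match of letters is a description of the window and shows no binding.

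The comparison of Aβ40 with DMSO asked which of these genes differed with the peptide. No member passed: with edgeR's quasi-likelihood test 0 of 83 were called higher and 0 lower at a Benjamini-Hochberg adjusted p under 0.05 over all genes, against a background of 0.126% of all tested genes called higher and 0% lower. The smallest adjusted p of a member was 0.318, for Uqcrc2. At an unadjusted p under 0.05 there were 9 members higher (Ndufa12, Ndufv3, Ndufb4, Ndufa9, Uqcrc2, Uqcrb, Cox6a2, Atp5g2 and Atp5c1) and 1 lower (Ndufa8), against 6.51% and 5.72% of all tested genes. DESeq2 also called 0 members, against a background of 1.18%, and limma on the FPKM called 0. The Aβ40 pair lay wholly above the DMSO pair for 25 members and below them for 4, while 54 overlapped. In all tested genes the corresponding shares were 23.2% above and 21.9% below.

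The members leaned to higher values with Aβ40, and that lean turned on which DMSO library was used. With all 4 libraries the log2 fold change was positive for 61 of 83 members, with a median of 0.25 and a range from -0.49 to 0.86, where all tested genes had 51.1% positive and a median of 0.01. Medians were 0.23 for complex I, 0.04 for complex II (-0.0076 with library size only), 0.30 for complex III, 0.33 for complex IV and 0.26 for complex V. Without DMSO 2 the median over the members was -0.12, with 32 of 83 positive. In that fit 2 members were called higher, Uqcrc2 and Cox8a, and 9 lower, Ndufa2, Ndufa8, Ndufb7, Ndufs7, Cox4i1, Cox5a, Cox6a1, Atp5d and Atp5e (edgeR quasi-likelihood test, Benjamini-Hochberg), against 3.88% and 3.28% of all tested genes. Without DMSO 1 the median was 0.63, with 73 of 83 positive. There 41 members were called higher and 1 lower, Uqcrc1, against 5.63% and 3.29% of all tested genes. The 41 were 20 genes of complex I, 8 of complex V, 6 of complex IV, 5 of complex III, 1 of complex II and Cycs. Ndufa2, a small subunit of the matrix arm of complex I, was called in both of these fits and in opposite directions, at 0.72 without DMSO 1 and -0.61 without DMSO 2. Both fits use the same Aβ40 libraries and rest on 1 DMSO library, assumed to vary like the Aβ40 pair. Without Aβ40 1 the median was 0.26 and without Aβ40 2 it was 0.14, with 0 members called in either fit.

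**Figure D3:**
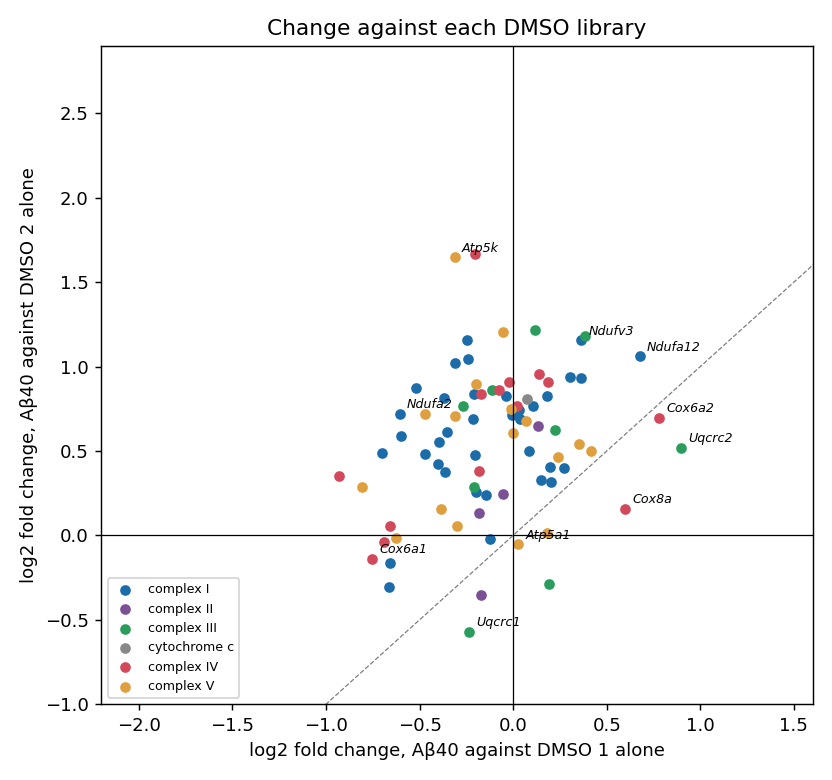
Log2 fold change of each tested member for the Aβ40 libraries against DMSO 1 alone (x axis) and against DMSO 2 alone (y axis), coloured by complex, with a dashed line where both are equal; Cox4i2, at 0 counts in DMSO 2, lies outside the axes. Most members lie above the dashed line and above 0 on the y axis, with medians of -0.12 on the x axis and 0.63 on the y axis.

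The nuclear core of complex I forms the arm that reaches into the matrix. Among its 7 subunits 4 were positive. Ndufv1, which binds the flavin that takes electrons from NADH, was at 59.4 and 55.7 CPM in DMSO 1 and 2 and 49.8 and 60.2 CPM in Aβ40 1 and 2. The 4 values overlapped, at -0.07 (SE 0.18). Ndufs8, an iron-sulfur subunit close to the quinone site, was at 62.9, 54.8, 77.3 and 68.3 CPM, above both controls in both Aβ40 libraries, at 0.31 (SE 0.18). Ndufs7, the neighbouring iron-sulfur subunit, went the other way. It was at 73.5, 52.5, 42.8 and 51.2 CPM, below both controls in both Aβ40 libraries, at -0.42 (SE 0.21; edgeR quasi-likelihood, adjusted p = 0.456) with all libraries, -0.16 without DMSO 1 and -0.66 without DMSO 2. Ndufv2, whose upstream NRF-1 letters are printed above, was at 204, 99.2, 173 and 183 CPM. Only DMSO 2 was low for it, so its log2 fold change of 0.23 with all libraries was -0.21 without DMSO 2 and 0.84 without DMSO 1. Ndufs1, the largest iron-sulfur subunit, was at 0.24 and Ndufs3, of the part near the quinone site, at -0.03, both with overlapping groups.

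The 30 tested genes counted by symbol as accessory subunits of complex I had a median of 0.27, with 24 positive. Accessory subunits surround the core and are needed for its assembly and stability. Ndufa4, since assigned to complex IV, is 1 of the 30. Ndufa12, a matrix-arm subunit (ENSMUSG00000020022, mm10 chromosome 10, 94198720 to 94221443), had the highest log2 fold change of all members. It was at 5.31 and 4.09 CPM in DMSO 1 and 2 and 8.36 and 8.73 CPM in Aβ40 1 and 2, at 0.86 (SE 0.29; edgeR quasi-likelihood, adjusted p = 0.334). Both Aβ40 libraries lay above both controls, and the value was 0.68 without DMSO 2. Ndufv3, an accessory of the NADH-oxidising module, was at 43.8, 25.4, 56.8 and 56.9 CPM, at 0.71 (SE 0.25; edgeR quasi-likelihood, adjusted p = 0.343). The Aβ40 pair was closely matched there and the DMSO pair was not, and the value was 0.36 without DMSO 2. Ndufa9, which holds the matrix arm to the membrane arm, was at 54.4, 35.3, 64.6 and 70.6 CPM, at 0.59 (SE 0.23) with all libraries and 0.30 without DMSO 2. Ndufb4 of the membrane arm, with NRF-1 letters in its printed stretch, was at 22.5, 15.3, 31.6 and 26.7 CPM, at 0.63 (SE 0.24) with all libraries and 0.36 without DMSO 2. In these 4 genes both Aβ40 libraries were the highest.

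Ndufa8, a subunit of the membrane arm (ENSMUSG00000026895, chromosome 2, 36036326 to 36049406), was the lowest member. It was at 53.4 and 41.9 CPM in DMSO 1 and 2 and 31.1 and 36.7 CPM in Aβ40 1 and 2, at -0.49 (SE 0.20; edgeR quasi-likelihood, adjusted p = 0.388). Both Aβ40 libraries lay below both controls, and the value stayed negative when either control was left out, at -0.31 without DMSO 1 and -0.66 without DMSO 2. Ndufab1, the mitochondrial acyl carrier protein, which also serves fatty acid and lipoate synthesis, was at 33.7, 24.6, 27.2 and 31.9 CPM with overlapping groups, at 0.02 (SE 0.22). Its promoter, like that of Ndufb4, carries the NRF-1 letters printed above. Ndufb7 and Ndufa2 were highest in DMSO 1 and lowest in DMSO 2. Ndufb7, a small subunit on the outer face of the membrane arm, was at 191, 84.1, 99.6 and 137 CPM, at -0.22 with all libraries, -0.70 without DMSO 2 and 0.49 without DMSO 1. Ndufa2 was at 104, 41.5, 60.0 and 77.0 CPM. The remaining genes counted as accessory lay between -0.11 for Ndufb6 and 0.48 for Ndufa4. Ndufa4, Ndufa6, Ndufb5, Ndufa10 and Ndufb2 were, like the 4 above, higher in both Aβ40 libraries.

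**Figure D4:**
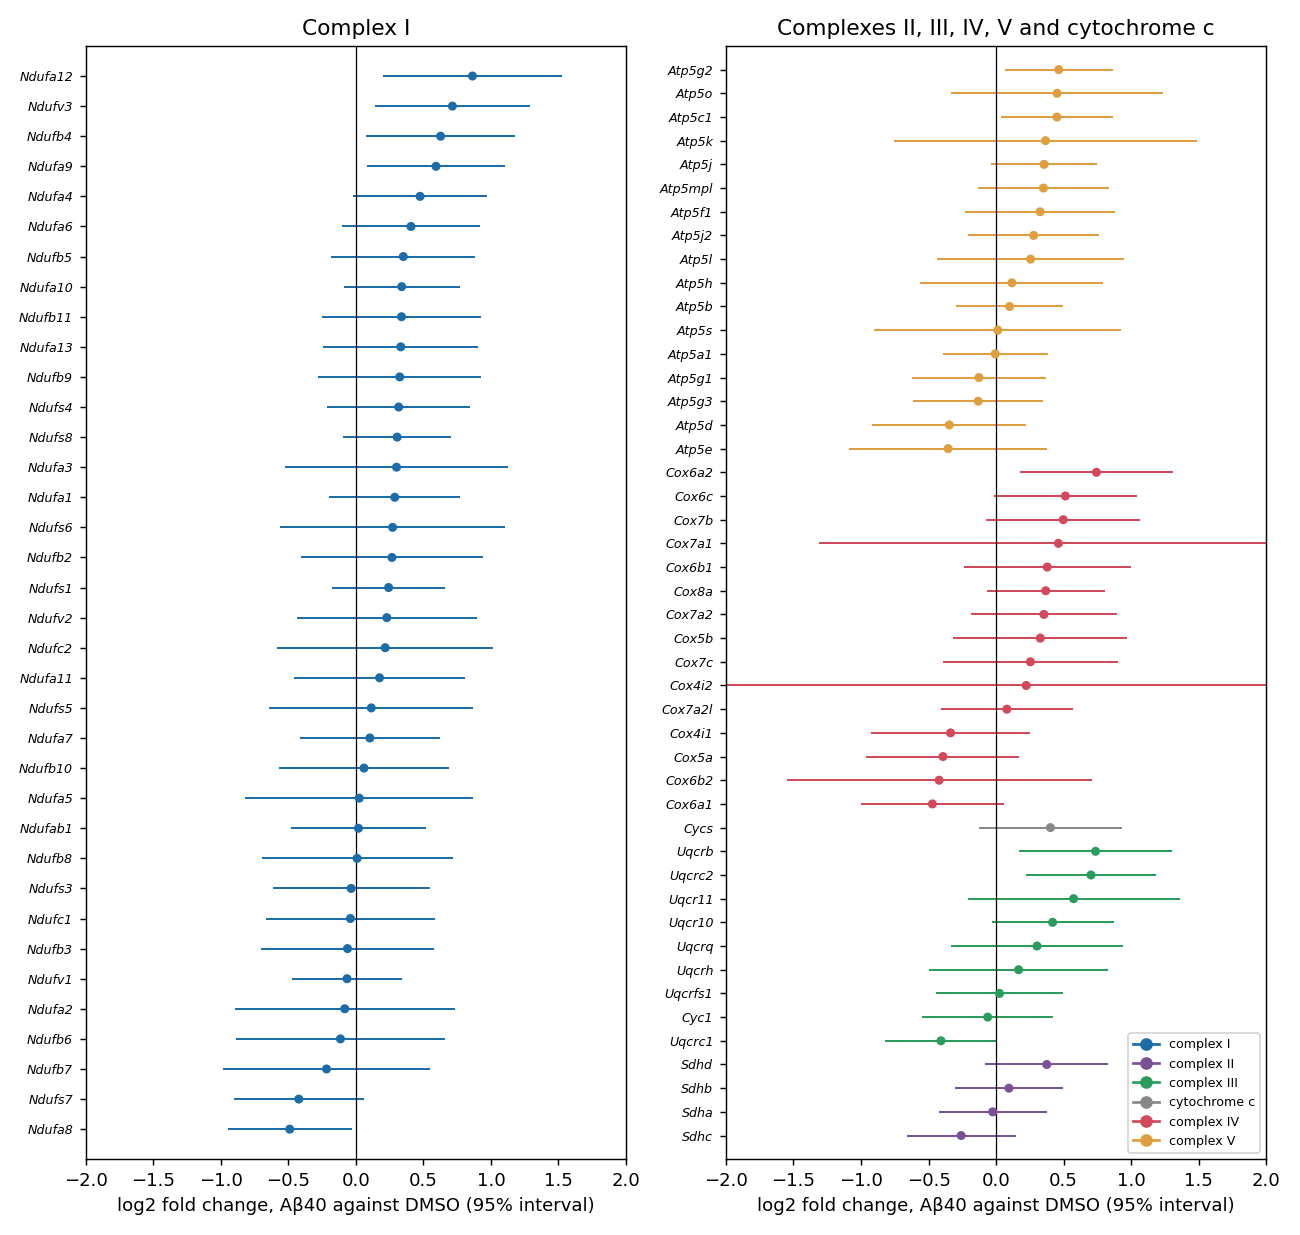
Log2 fold change of the tested members (1 of complex I is not drawn), Aβ40 against DMSO with all 4 libraries (points, x axis), with its 95% interval from the edgeR fit (lines, cut at the edge of the axis for Cox4i2 and Cox7a1), by complex. The points run from -0.49 for Ndufa8 to 0.86 for Ndufa12, and 0 members passed an adjusted p under 0.05.

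Complex II, the only complex of the chain with no mitochondrially encoded part, had the smallest median gap between the controls of the complexes, with a log2 ratio of DMSO 2 to DMSO 1 of -0.29. Sdha, the flavoprotein that oxidises succinate, was at 127 and 103 CPM in DMSO 1 and 2 and 113 and 114 CPM in Aβ40 1 and 2. Sdhb, the iron-sulfur subunit, was at 147, 121, 149 and 138 CPM. Both overlapped between groups, at -0.02 (SE 0.18) and 0.10 (SE 0.18). The membrane anchors Sdhc and Sdhd, which hold the haem and the quinone site, parted. Sdhd was at 135, 94.8, 148 and 150 CPM, above the controls in both Aβ40 libraries, at 0.38 (SE 0.20). Sdhc was at 48.2, 54.8, 41.5 and 44.6 CPM, below them in both, at -0.26 (SE 0.18). Neither passed, with adjusted p = 0.482 for Sdhd and 0.589 for Sdhc (edgeR quasi-likelihood). Without DMSO 2 they were at 0.13 and -0.17.

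In complex III the pair of core proteins on the matrix side, Uqcrc1 and Uqcrc2, lay on opposite sides of 0. Uqcrc2 (ENSMUSG00000030884, chromosome 7, 120635176 to 120659524) was at 46.6 and 60.9 CPM in DMSO 1 and 2 and 99.8 and 75.4 CPM in Aβ40 1 and 2, at 0.70 (SE 0.21; edgeR quasi-likelihood, adjusted p = 0.318). Both Aβ40 libraries lay above both controls, and its value was larger without DMSO 2, at 0.90, than without DMSO 1, at 0.52. The annotation gives it 504 exonic bases in common with Pdzd9, so reads of the 2 genes may not have been told apart. Uqcrc1 (ENSMUSG00000025651, chromosome 9, 108936633 to 108949623) was at 90.6, 115, 73.6 and 81.3 CPM, at -0.41 (SE 0.18; edgeR quasi-likelihood, adjusted p = 0.418). Both Aβ40 libraries lay below both controls for Uqcrc1, and the value was -0.24 without DMSO 2. The 2 proteins form 1 dimeric core, and the ratio of Uqcrc2 to Uqcrc1 was not tested.

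Among the electron-carrying parts of complex III, Cyc1 was at 29.4, 41.1, 33.9 and 33.7 CPM and Uqcrfs1, the Rieske iron-sulfur protein, at 155, 111, 123 and 148 CPM. Groups overlapped for both, at -0.06 (SE 0.21) and 0.03 (SE 0.21). The 5 small subunits were positive with all libraries, from 0.17 for Uqcrh to 0.74 for Uqcrb. Without DMSO 2 Uqcrh was at -0.27, Uqcrq at -0.11, Uqcr11 at 0.12 and Uqcr10 at 0.22. Uqcrb, which helps to bind ubiquinone, was at 53.5, 31.0, 70.3 and 70.6 CPM, at 0.74 (SE 0.25; edgeR quasi-likelihood, adjusted p = 0.334) with all libraries and 0.38 without DMSO 2. Uqcrb, Uqcr10 and Uqcr11 were higher in both Aβ40 libraries, and Uqcrq and Uqcrh overlapped. Cycs, for cytochrome c, was at 99.4, 60.3, 107 and 104 CPM. It was marginally higher in both Aβ40 libraries than in DMSO 1, so its value of 0.40 (SE 0.23) was 0.07 without DMSO 2 and 0.81 without DMSO 1.

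In complex IV the lowest and the highest log2 fold change belonged to Cox6a1 and Cox6a2, the common and the muscle form of 1 subunit. Cox6a2 (ENSMUSG00000030785, chromosome 7, 128205435 to 128206387) was at 6.97 and 7.42 CPM in DMSO 1 and 2 and 11.2 and 12.9 CPM in Aβ40 1 and 2, at 0.74 (SE 0.25; edgeR quasi-likelihood, adjusted p = 0.334). The controls were alike for this gene and both Aβ40 libraries were higher, so it was at 0.78 without DMSO 2 and 0.70 without DMSO 1. Cox6a2 overlaps Itgad, an integrin gene, over 70 exonic bases. Cox6a1 (ENSMUSG00000041697, chromosome 5, 115345642 to 115348981), whose NRF-1 letters are printed above, was at 239, 157, 125 and 161 CPM, with groups that overlapped by DMSO 2 and Aβ40 2, at -0.47 (SE 0.23; edgeR quasi-likelihood, adjusted p = 0.451). It was at -0.75 without DMSO 2 and -0.14 without DMSO 1. The share of Cox6a2 in the FPKM of the pair was 2.92% and 4.65% with DMSO and 8.43% and 7.66% with Aβ40, higher in both Aβ40 libraries.

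Cox4i1 and Cox5a, from the larger nuclear subunits of complex IV, were also below 0, while Cox5b was at 0.33 with all libraries, -0.07 without DMSO 2 and 0.86 without DMSO 1. Cox4i1, the subunit through which ATP inhibits the enzyme, was at 459 and 281 CPM in DMSO 1 and 2 and 249 and 337 CPM in Aβ40 1 and 2, at -0.34 (SE 0.26). Cox5a was at 81.5, 52.2, 42.9 and 58.8 CPM, at -0.39 (SE 0.25). For both, DMSO 1 was far above the other libraries and the groups overlapped. Without DMSO 1 they were at 0.06 and -0.04, and without DMSO 2 at -0.66 and -0.69. Cox6c, Cox7b and Cox8a, small transmembrane subunits, were above 0. Cox6c was at 145, 88.3, 167 and 165 CPM, at 0.51 (SE 0.23). Cox7b was at 78.2, 44.5, 88.7 and 84.6 CPM, at 0.50 (SE 0.25), and Cox8a was at 73.5, 100, 113 and 112 CPM, at 0.37 (SE 0.19). In these 3 genes both Aβ40 libraries were the highest, but Cox8a alone was lowest in DMSO 1. Cox8a was at 0.60 without DMSO 2, where Cox6c was at 0.19 and Cox7b at 0.14. Cox7a2 was higher in both Aβ40 libraries by a small margin, at 0.35 with all libraries and 0.02 without DMSO 2. The tissue-restricted forms Cox4i2, Cox6b2 and Cox7a1 were scarce, each under 6 CPM in every library, with intervals that spanned 0.

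In the catalytic head of complex V Atp5a1, the alpha chain, was at 321 and 341 CPM in DMSO 1 and 2 and 338 and 322 CPM in Aβ40 1 and 2, and Atp5b, the beta chain, at 344, 388, 398 and 386 CPM. The 4 values lay close together for both, at -0.01 (SE 0.17; 95% interval -0.39 to 0.38) and 0.10 (SE 0.18; 95% interval -0.30 to 0.50). Of the rotating central stalk, Atp5c1 for the gamma chain was at 186, 164, 262 and 217 CPM, above the controls in both Aβ40 libraries, at 0.45 (SE 0.18; edgeR quasi-likelihood, adjusted p = 0.377) and still at 0.35 without DMSO 2. Its partners Atp5d and Atp5e, the delta and epsilon chains, were on the other side of 0. Atp5d was at 119, 78.3, 63.1 and 92.2 CPM, at -0.35 (SE 0.25). Atp5e was at 227, 107, 109 and 151 CPM, at -0.35 (SE 0.32) with all libraries, -0.81 without DMSO 2 and 0.29 without DMSO 1. For both of these genes DMSO 1 was the highest library.

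Of the membrane ring of complex V, Atp5g2 was the gene with the highest log2 fold change. It was at 70.1, 66.6, 103 and 85.4 CPM, above the controls in both Aβ40 libraries, at 0.46 (SE 0.18; edgeR quasi-likelihood, adjusted p = 0.3596) and 0.41 without DMSO 2. Atp5g3 was at 121, 83.6, 84.9 and 102 CPM and Atp5g1 at 44.0, 34.6, 30.9 and 41.1 CPM, both overlapping and both at -0.13. The side stalk and other membrane subunits were positive with all libraries, from 0.12 for Atp5h, whose stretch is printed above, to 0.45 for Atp5o. Without DMSO 2 most of them were not, with Atp5h at -0.31, Atp5k at -0.31, Atp5l at -0.20, Atp5o at -0.05, Atp5f1 at -0.01 and Atp5j2 at -0.003. Atp5j, the coupling factor 6 subunit, and Atp5mpl, a small proteolipid, were higher in both Aβ40 libraries, at 0.36 and 0.35 with all libraries and 0.24 and 0.07 without DMSO 2. The widest gap between controls of any member detected in all 4 libraries was that of Atp5k, the e subunit, which helps ATP synthase pair up in the folded inner membrane. Atp5k was at 32.6 and 8.44 CPM in DMSO 1 and 2 and 22.3 and 30.6 CPM in Aβ40 1 and 2. Its log2 fold change of 0.37 (SE 0.50) was -0.31 without DMSO 2 and 1.65 without DMSO 1.

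The gap between the DMSO libraries followed the length of the coding sequence, and most subunits are small. The median longest coding length was 423 bases for the tested members and 1359 for all tested protein-coding genes (GENCODE M21). For the 21 members of at most 300 coding bases the median log2 ratio of DMSO 2 to DMSO 1 was -0.82. It was -0.71 for the 41 members over 300 and up to 600, -0.48 for the 12 up to 1200, and -0.10 for the 9 above 1200. All tested protein-coding genes showed the same order, at -0.57, -0.31, -0.07 and 0.10, and in each class the members were lower than those genes. Across 82 members with counts in both controls, Spearman's rho between coding length and that ratio was 0.42, and across 11553 genes it was 0.31. Genes are not independent replicates and all share these 2 libraries. Between the Aβ40 libraries coding length gave a rho of 0.03 over the members, while GC content gave 0.32 over the members and 0.32 over all protein-coding genes. Whether length had a part in the low values of DMSO 2 was not tested. The median log2 fold change of the members for Aβ40 against DMSO was 0.35, 0.12, 0.27 and 0.04 from the shortest to the longest class.

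**Figure D5:**
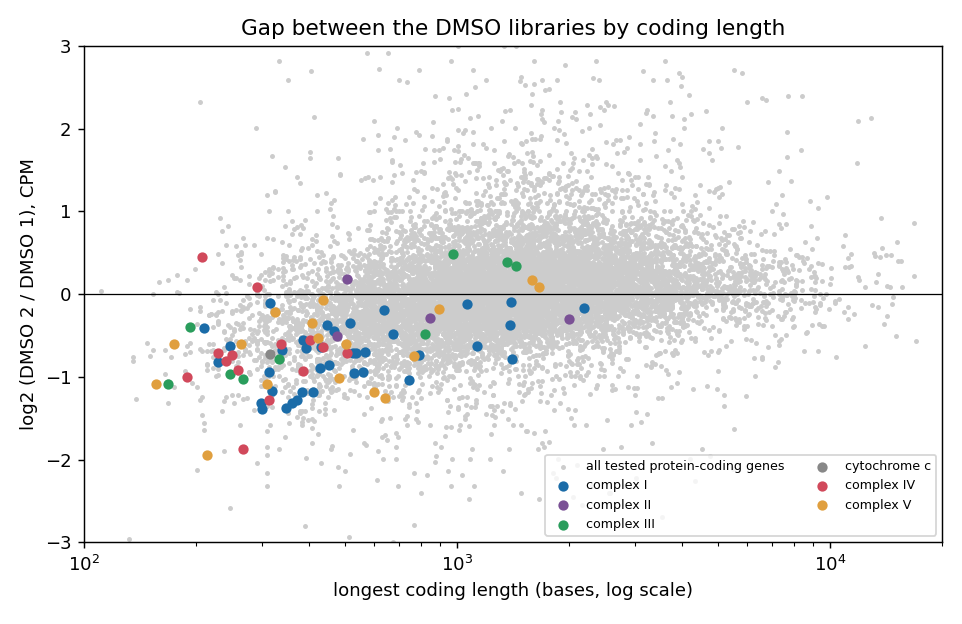
Log2 ratio of DMSO 2 to DMSO 1 in CPM (y axis) against the longest coding length in bases (x axis, log scale) for tested members, coloured by complex, and for all tested protein-coding genes in grey, of which 65 of 11567 lie outside the axes; Cox4i2 is not drawn, as it had 0 counts in DMSO 2. Short genes lie lower, and the members fall mostly below 0, with class medians from -0.82 for the shortest to -0.10 for the longest.

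The mitochondrially encoded partners of these subunits did not follow them between the controls. Of 13 such genes 11 were tested, and they summed to 4067 and 7256 CPM in DMSO 1 and 2 and 12141 and 7440 CPM in Aβ40 1 and 2. The ratio of this sum to that of the nuclear members was 0.466, 1.24, 1.55 and 0.899 in the same order, lowest in DMSO 1. The log2 fold change was positive for all 11, with a median of 0.70. By the edgeR quasi-likelihood test 0 were called, with 5 at an unadjusted p under 0.05. The median log2 ratio of their Aβ40 mean was 0.98 to DMSO 1 and 0.48 to DMSO 2. The Aβ40 libraries differed too, with 0 of 11 higher in Aβ40 2 than in Aβ40 1 and a median log2 ratio of -0.56. mt-Co1, the catalytic subunit of complex IV, was at 1251, 2985, 5732 and 2957 CPM, so that DMSO 2 and Aβ40 2 were alike. mt-Co3, another core subunit of complex IV, was at 16.9, 17.6, 34.5 and 26.8 CPM, above both controls in both Aβ40 libraries, at 0.82 (SE 0.22; edgeR quasi-likelihood, adjusted p = 0.263). mt-Atp6, the channel subunit of complex V, was at 7.67, 15.6, 27.7 and 18.7 CPM, at 1.00 (SE 0.35), likewise above both. Of the 11 tested genes 8 share exonic bases with another gene in GENCODE M21. Reads of such genes may not have been told apart, so their levels, the sum and the ratio are uncertain.

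Genes that build, supply and regulate the chain gave 0 calls in the lists that follow (edgeR quasi-likelihood test over all genes). Complex I assembly factors were positive in 16 of 18, with a median of 0.23 and 1 at an unadjusted p under 0.05. Tmem126b, which helps to join the membrane arm, was at 12.9, 12.7, 20.2 and 16.9 CPM, at 0.54 (SE 0.22). Tmem186, of the same assembly complex, was at 0.59 (SE 0.32). Assembly factors of complexes II to V were positive in 20 of 36, with a median of 0.04, from which Uqcc2 of complex III was at 0.74 (SE 0.39) and Coa5 of complex IV at -0.29 (SE 0.16). For this list the median log2 ratio of the Aβ40 mean to DMSO 1 was -0.18 and to DMSO 2 was 0.33. Enzymes of the tricarboxylic acid cycle and pyruvate dehydrogenase, which feed the chain, were positive in 16 of 18, with a median of 0.21 and 2 at an unadjusted p under 0.05. Suclg2, the GTP-forming subunit of succinyl-CoA ligase, was at 5.52, 5.05, 10.002 and 11.6 CPM, at 1.03 (SE 0.27; edgeR quasi-likelihood, adjusted p = 0.263). Idh3g, of the NAD-dependent isocitrate dehydrogenase, was at 60.4, 77.4, 102 and 94.4 CPM, at 0.51 (SE 0.19). For Suclg2 and Idh3g both Aβ40 libraries were above both controls.

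Import and cristae genes were positive in 21 of 31, with a median of 0.18, and 27 of 31 were lower in DMSO 2 than in DMSO 1. The median log2 ratio of their Aβ40 mean to DMSO 1 was -0.01 and to DMSO 2 was 0.35. In this list Chchd10, of the intermembrane space, was at 2.04, 2.63, 4.62 and 6.02 CPM, at 1.19 (SE 0.37), and Apool, of the cristae junctions, at 0.56 (SE 0.24). Genes of other electron entry and of ubiquinone synthesis were positive in 10 of 18, with a median of 0.06, among them Coq7 at 0.72 (SE 0.26) and Coq5 at 0.39 (SE 0.27). Carriers of the inner membrane were positive in 8 of 14, with a median of 0.02. Slc25a5, which exchanges ADP for ATP, was at 284, 236, 366 and 340 CPM, at 0.44 (SE 0.18), and Slc25a10, the dicarboxylate carrier, was at 11.3, 14.9, 8.37 and 9.05 CPM, at -0.59 (SE 0.25). The groups did not overlap for either. Of 8 symbols listed as ATP synthase accessory genes 3 were found, Usmg5, Atpif1 and the member Atp5mpl, with a median of 0.35. The median log2 ratio of their Aβ40 mean was 0.08 to DMSO 1 and 0.68 to DMSO 2. Atpif1, the inhibitor that stops ATP synthase from running backwards, was at 80.7, 42.2, 88.3 and 82.1 CPM, low in DMSO 2 as most members were, at 0.47 (SE 0.28).

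Regulators of the chain and of mitochondrial DNA were positive in 7 of 20, with a median of -0.13. Yy1 was at 184, 169, 128 and 143 CPM, below both controls in both Aβ40 libraries, at -0.38 (SE 0.17; edgeR quasi-likelihood, adjusted p = 0.408). Tfb2m, which starts transcription of mitochondrial DNA, was at 9.06, 9.46, 11.6 and 13.9 CPM, above both controls in both, at 0.46 (SE 0.24). Nrf1 was at 0.09 (SE 0.22) and Gabpa at -0.11 (SE 0.16), given because their letters were searched above. Glycolysis, the other source of ATP, was positive in 12 of 21, with a median of 0.02. Hk3, a hexokinase of white blood cells, was at -0.44 (SE 0.19). Gapdh was at 156 and 28.0 CPM in DMSO 1 and 2 and 23.98 and 18.04 CPM in Aβ40 1 and 2, so that DMSO 1 stood apart, at -2.13 (SE 0.62; edgeR quasi-likelihood, adjusted p = 0.296).

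The 5 members that did not pass the filter were Ndufa4l2, Cox7b2, Cox8b, Cox8c and the second Atp5o identifier (ENSMUSG00000116933), each with 0 counts in all 4 libraries. A count of 0 allows up to 3 counts, or between 0.157 and 0.175 CPM, for counting error only. Cox4i2 passed with 13, 0, 4 and 11 counts, so no fold is given for it against DMSO 2. Of the tested members 29 share exonic bases with another gene in GENCODE M21, and no source used here gives the strand setting of the counting, so such pairs may share reads. A further 13 genes matched the symbols but were set aside by their type, 12 of them processed pseudogenes. Of these Ndufab1-ps had 153, 149, 99 and 112 counts, and reads may be split between it and Ndufab1. The other gene set aside, Ndufb1-ps, typed as a bidirectional promoter lncRNA, had 1435, 1092, 2048 and 2077 counts. Starts of 19 tested members (22.9%) lay head to head with that of another gene within 1000 bases, against 10.9% of tested protein-coding genes, for example Sdhd with Timm8b, Sdha with Ccdc127 and Ndufa2 with Ik.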

How the data were processed

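The authors deposited raw read counts per gene and FPKM for 54532 genes in 4 libraries. HISAT2 2.0.5, featureCounts 1.5.0-p3 and the build mm10 are named, without role or order, in the submitters' processing notes. The strand setting of the counting and the annotation release were not given in the sources used here. The deposited FPKM equal count over gene length and an effective library size that differed between the libraries, as checked on the values. Total counts were 17212264 to 19524125 per library, and 1 count was worth 0.0512 to 0.0581 CPM before scaling.

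Counts were fitted in R 4.3.3 with edgeR 4.0.16 (filterByExpr, TMM, quasi-likelihood test of group, 2-sided), and p-values were adjusted by Benjamini-Hochberg over all 13479 genes tested. The fit had 2 residual and 6.88 prior degrees of freedom and a common biological coefficient of variation of 0.21. It was run on simulated data whose changed genes differed by more than any member did here, so that run cannot speak to smaller changes. Log2 fold changes are Aβ40 minus DMSO. Calls were made at an adjusted p under 0.05. DESeq2 1.42.0, limma 3.58.1 on log2(FPKM + 1) and log2(FPKM + 0.1), other scalings, no filter, a fit of protein-coding genes, a block for the replicate number and leaving out each library were alternatives. With a library left out 1 residual degree of freedom remained.

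The members and the 18 marker and pathway lists were chosen with earlier results of these data known. The rule for named genes took members that were called or among the 10 smallest p-values, per complex the 2 highest and the lowest level and both extremes of fold change, core, Sdh, cytochrome and isoform genes, and the 2 smallest p-values of each pathway list. One member is not reported by name here. Other genes in the text were named after their values were seen. GENCODE M21 (GRCm38) gave coding length, GC content and overlaps for 54495 matched genes. Promoters are from RefSeq, GRCm38.p6. Replicate numbers were not shown to pair the samples.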

Additional observations from a re-analysis of the deposited data

How the results depend on the processing

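No member was called under median-ratio scaling, library size only, no filter, protein-coding genes only, DESeq2 or limma on either FPKM scale, and the median over the members stayed between 0.23 and 0.29 in these settings. The exceptions were the left-out libraries, where the number called higher ran from 0 to 41 and the number called lower from 0 to 9. The median over all members then ran from -0.12 to 0.63, with -0.20 to 0.69 for complex I, -0.11 to 0.19 for II, 0.12 to 0.63 for III, -0.17 to 0.77 for IV and -0.0532 to 0.54 for V. In each range of medians the lowest value came without DMSO 2 and the highest without DMSO 1. With library size only the median of complex II was -0.0076, and the cause was not tested. Of 45 named members 4 changed sign outside the left-out libraries: Atp5s (-0.0041) and Uqcrfs1 (-0.0092) with library size only, Ndufa2 with the replicate block (0.0491) and on both FPKM scales (0.0368 and 0.0382), and Ndufs3 with the replicate block (0.0017). The replicate numbers were not shown to pair the samples, and 1 correlation of deviations (-0.19) over so few libraries cannot decide it. With the replicate block 0 members were called and the median was 0.31, while 27 genes in all were called against 17 without it. A block on crossed pairs, chosen after seeing the data, called 8 members higher and 0 lower, and 445 higher and 276 lower among all 13479 genes. When a library was left out 22 named members changed sign. Their ranges were -0.0520 to 0.0274 for Atp5a1, -0.81 to 0.29 for Atp5e, -0.37 to 0.0609 for Atp5g1, -0.38 to 0.15 for Atp5g3, -0.31 to 0.71 for Atp5h and -0.47 to 0.72 for Atp5s. In complex IV they were -0.66 to 0.0571 for Cox4i1, -0.77 to 5.92 for Cox4i2 (whose upper value is against 0 counts and no fold), -0.0214 to 0.91 for Cox6b1, -0.93 to 0.35 for Cox6b2, -0.52 to 1.67 for Cox7a1 and -0.18 to 0.38 for Cox7a2l. In complex I they were -0.61 to 0.72 for Ndufa2, -0.0399 to 0.83 for Ndufb11, -0.37 to 0.38 for Ndufs3, -0.23 to 0.0625 for Ndufv1 and -0.21 to 0.84 for Ndufv2. In complexes II and III they were -0.18 to 0.13 for Sdha, -0.0526 to 0.24 for Sdhb, -0.29 to 0.19 for Cyc1, -0.21 to 0.29 for Uqcrfs1 and -0.27 to 0.77 for Uqcrh. A fit with a library left out takes the lone library to vary like the other group. Depth limits scarce members such as Cox4i2.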
